A study of Homo sapiens with 18 samples.

Results

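The data were the DNA-RNA hybrid regions recovered from HCT116 cells after 60 min of camptothecin (CPT), set against the regions recovered after the same DNA was first digested with RNase H. HCT116 is an established human colorectal carcinoma line, and CPT traps DNA topoisomerase I (Top1) on DNA as a cleavage complex. In DNA-RNA immunoprecipitation sequencing (DRIP-seq), genomic DNA is cut with restriction enzymes and hybrids are pulled down with the S9.6 antibody. The DRIP group and the RNase H group each held 2 biological replicates, all from cells that received 10 µM CPT for 60 min; they differed in RNase H digestion of the purified DNA before the pull-down. All 4 libraries came from a single cell line, and each replicate pooled parallel pull-downs. The 4 peak lists held 187127 of the 430858 peaks in the 12 lists of the series, which also covers untreated cells (NT) and 5 min of CPT. Where peaks of the 2 DRIP replicates shared at least 1 bp they were joined, which gave 19969 replicated regions. Of these, 16301 were met by at least 1 bp of an RNase H peak in at least 1 of the 2 RNase H lists, and 3668 were met by none.

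R loops form when nascent RNA reanneals to the template strand behind RNA polymerase and displaces the other DNA strand. They are common at the starts of active genes, where G-rich nontemplate strands and negative supercoils favour them, and at some terminators. RNase H cleaves the RNA of such a hybrid, so digestion before the pull-down removes hybrid-borne signal and serves as the specificity control of the assay. A peak that is still called after digestion marks DNA that S9.6 beads recovered from the digested sample.

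The RNase H lists of the 2 replicates were unlike each other. DRIP replicate 1 held 41668 peaks, DRIP replicate 2 72879, RNase H replicate 1 5392 and RNase H replicate 2 67188. Within each replicate number DRIP held more peaks, by 36276 in replicate 1 and 5691 in replicate 2, but RNase H replicate 2 exceeded DRIP replicate 1, so the groups overlapped. The DRIP mean was 57274 ± 22070 peaks (SD, n = 2) and the RNase H mean 36290 ± 43696 (SD, n = 2), with p = 0.667 in a two-sided exact permutation test over the 4 libraries. That test cannot give less than p = 0.333 with 2 against 2 (exact). Median peak widths were 490 and 550 bp in DRIP and 340 and 477 bp in RNase H, wider in DRIP by 150 and 73 bp within replicates 1 and 2, so both DRIP lists lay above both RNase H lists, at the smallest p the exact test allows, 0.333. The peaks covered 34.5 and 82.2 Mb in DRIP against 2.10 and 56.7 Mb in RNase H, the last being 1.98% of the genome.

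**Figure D1:**
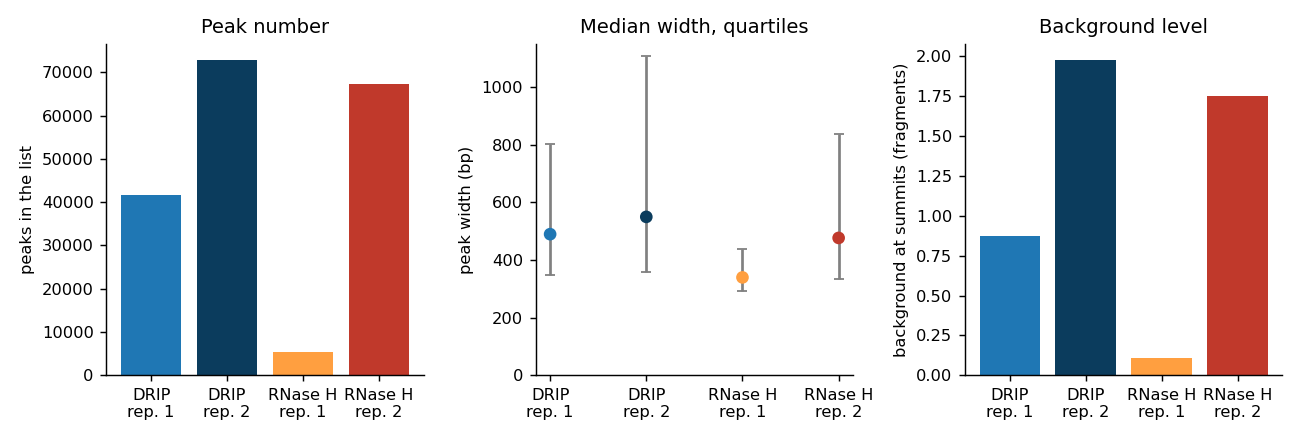
Peak number (bars), median peak width with quartiles in bp (points and error bars), and background level in fragments (bars) for the 4 libraries of 60 min CPT. RNase H replicate 1 stands apart with 5392 peaks and a background of 0.110 fragments, while RNase H replicate 2 lies close to DRIP replicate 2.

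The background level of the libraries followed the same order as their peak numbers. Fold enrichment and p of a MACS2 peak together fix the number of fragments stacked at its summit and the background expected there, and these came out whole to within 0.05 for 99.8% to 100% of the peaks of each list. That level, which scales with sequencing depth, was 0.874 fragments in DRIP replicate 1, 1.98 in DRIP replicate 2, 0.110 in RNase H replicate 1 and 1.75 in RNase H replicate 2. The background of RNase H replicate 1 was thus 7.97 times lower than that of its DRIP partner, and its peaks held a median of only 4 summit fragments, against 9, 14 and 13 in the other lists. Depth and digestion cannot be told apart in that library. In replicate 2 the background of DRIP was 1.13 times that of RNase H. Results are therefore given for each RNase H list, and the main comparisons rest on RNase H replicate 2.

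Peak borders in both kinds of library fell on the restriction sites used to cut the DNA. A site of 1 of the 5 enzymes (HindIII, EcoRI, XbaI, SspI and BsrGI, each with a recognition sequence of 6 bases) lay at 26.2% and 32.8% of the DRIP peak borders and at 16.1% and 29.9% of the RNase H borders, while 1.37% of genome positions lie at one. DRIP replicate 2 and RNase H replicate 2 shared 8847 identical peak starts, of which 97.7% lay at a site, against 4505 shared by the 2 DRIP replicates and 72 shared by DRIP and RNase H of replicate 1. There were 57 peaks with both borders identical in both DRIP lists and RNase H replicate 2, and 56 of these had a site at each border. The 4 with the highest DRIP percentile over a gene of the lists described below are shown here. They let the reader see the same stretch between restriction sites recovered with and without RNase H. Whether further sites lie inside these stretches was not examined. Sequences are the hg19 plus strand, centred on the peak border, with the recognition sequence in capitals.
RPS15A start, BsrGI, chr16:18794823-18794846: agacgttcattTGTACAatgagtg
RPS15A end, SspI, chr16:18802943-18802966: ccaatcataAATATTatattggct
FDXR start, HindIII, chr17:72860050-72860073: gggatgaccccAAGCTTggagtca
FDXR end, SspI, chr17:72869705-72869728: gccagggagAATATTaaaccctgg
SYNCRIP start, SspI, chr6:86350302-86350325: tcagcttttAATATTtttagaaaa
SYNCRIP end, HindIII, chr6:86354223-86354246: gattaaaAAGCTTatttttaagag
HSPA9 start, SspI, chr5:137905388-137905411: atttttaaaAATATTtagtttata
HSPA9 end, BsrGI, chr5:137908233-137908256: cttactcTGTACAtgcaaccttta

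These stretches carried many reads in all 3 lists. The 8120 bp peak at RPS15A, a ribosomal protein of the small subunit, held 33 summit fragments in DRIP replicate 1, 83 in DRIP replicate 2 and 50 in RNase H replicate 2. At FDXR, a mitochondrial reductase induced by p53, the 9655 bp peak held 74, 137 and 100 summit fragments in the same order. The peak at SYNCRIP, an hnRNP protein, spanned 3921 bp with 36, 89 and 53 fragments, and that at the mitochondrial chaperone gene HSPA9 2845 bp with 16, 54 and 38. As shared bases over the union of bases, DRIP replicate 2 and RNase H replicate 2 had 43.3%, DRIP replicate 1 and RNase H replicate 2 32.5%, the 2 DRIP replicates 29.9%, DRIP and RNase H of replicate 1 0.881%, and the 2 RNase H replicates 0.672%. By this measure, and by identical starts (4844 against 4505), DRIP replicate 1 shared more with RNase H replicate 2 than with DRIP replicate 2. As a share of its own bases the order was reversed: 77.9% lay in DRIP replicate 2 peaks and 64.9% in RNase H replicate 2 peaks. DRIP replicate 2 covered more of the genome, 2.87% against 1.98%, which enlarges the union.

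RNase H peaks met most replicated DRIP regions, nearly all through replicate 2. At least 1 RNase H list met 81.6% of the 19969 regions (95% Wilson interval 81.1 to 82.2%). RNase H replicate 2 met 81.5% and replicate 1 met 3.17%. Both lists met 609 regions, replicate 2 alone 15667, replicate 1 alone 25, and neither 3668. Intervals here and below cover counting error only, since regions of 1 library are not replicates. The share moved with the length of the lists. With both RNase H lists limited to their 5392 strongest peaks it was 23.02%, without DRIP replicate 1 49.15% of DRIP replicate 2 peaks met an RNase H peak, and without RNase H replicate 2 the share was 3.17%. When the RNase H peak had to cover at least 50% of the region the share was 58.5%, and when it had to lie over a DRIP summit 76.0%. The median region met by replicate 2 had 69.0% of its bases in RNase H peaks.

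Width separated the regions most. Regions with an RNase H peak had a median width of 2067 bp (quartiles 1033 and 3802) and those without one 752 bp (538 and 1149), a ratio of 2.75. With RNase H list 1 alone the ratio was 2.47 and with list 2 alone 2.75. Regions met by both RNase H lists were wider still, with a median of 4197 bp. In 5 classes of equal size by width, the share with an RNase H peak was 56.5% for regions of 271 to 721 bp, 71.2% for 722 to 1251 bp, 84.8% for 1252 to 2169 bp, 95.9% for 2170 to 3856 bp and 99.7% for wider ones. A wider region offers more bases in which 1 bp of overlap can fall. Values averaged over the width classes are therefore given beside several comparisons that follow. These averages leave out the widest class, which held 3983 regions with an RNase H peak but only 12 without. RNase H replicate 1 ran in the same direction at a lower level, from 1.18% in the narrowest class to 8.09% in the widest.

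**Figure D2:**
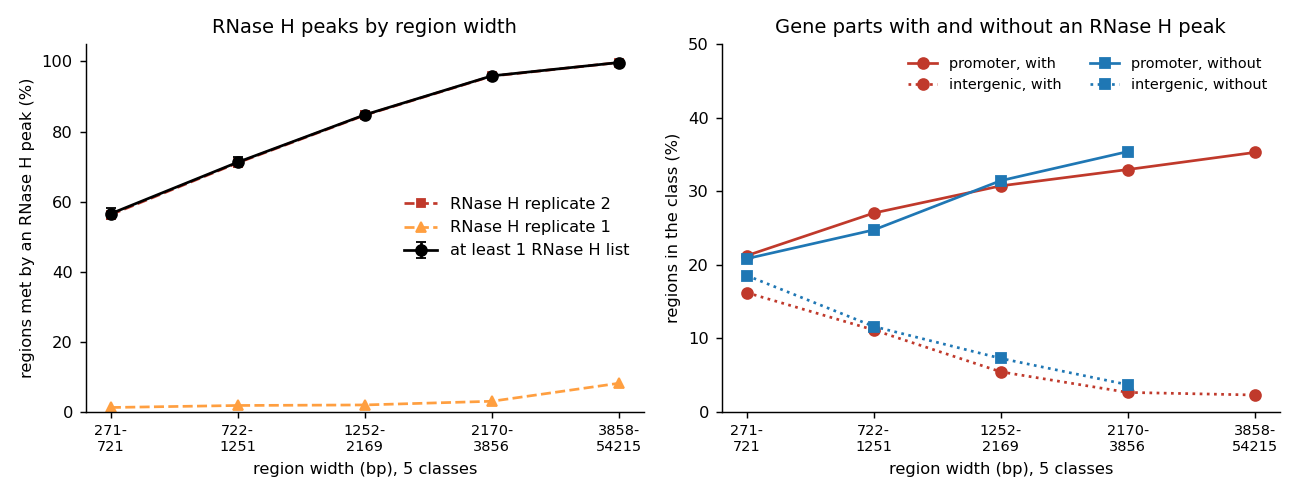
Left, share of replicated regions met by an RNase H peak (%) in 5 classes of region width (bp), for at least 1 list (black, with 95% Wilson intervals) and for each RNase H replicate; the black line rises from 56.5% to 99.7% and coincides with replicate 2. Right, share of regions with their midpoint in a promoter (solid) or between genes (dotted), with and without an RNase H peak, in the same classes; the widest class is left out for regions without one, which number 12 there.

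Regions with an RNase H peak were also the stronger DRIP regions. Each peak was ranked by fold enrichment within its own list, as a percentile in which 100 is the highest. The median percentile in DRIP replicates 1 and 2 was 42.8 and 50.9 for regions without an RNase H peak, 67.03 and 84.1 for those met by replicate 2 only, and 90.8 and 94.1 for those met by both. The difference between regions with and without one averaged 29.3 percentile points, and 12.6 points when averaged over the width classes. Of the regions whose lower percentile was 20 or less, 64.5% had an RNase H peak, and of those above 80, 97.8% did. Regions without one held a median of 8 and 14 summit fragments in the 2 DRIP lists, against 11 and 23 for regions with one.

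Gene parts differed modestly between the classes, and most of that difference went with width. Each region was placed by its midpoint, first in promoters (5′ untranslated regions and 10 kb upstream), then terminators (3′ untranslated regions and 10 kb downstream), exons, introns and intergenic DNA. Promoters held 30.4% of regions with an RNase H peak and 24.5% of those without, terminators 17.1% and 13.4%, introns 43.9% and 46.0%, exons 2.16% and 2.37%, and intergenic DNA 6.47% and 13.8%. Averaged over the width classes, the promoter difference fell from 5.92 to 0.69 percentage points and the terminator difference from 3.73 to 0.68. The intergenic difference then shrank from -7.30 to -1.61. With a 1 kb upstream window in place of 10 kb, the promoter difference turned to -1.04 points. With RNase H replicate 1 alone it was -2.88 points and the intergenic difference 4.32 points, so both directions rest on RNase H replicate 2. Intergenic regions were met least often, at 67.6% (95% Wilson interval 65.2 to 69.9%), and promoter regions at 84.7% (83.7 to 85.6%). Intergenic regions were also the narrowest, with a median of 790 bp against 1971 bp at promoters.

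**Figure D3:**
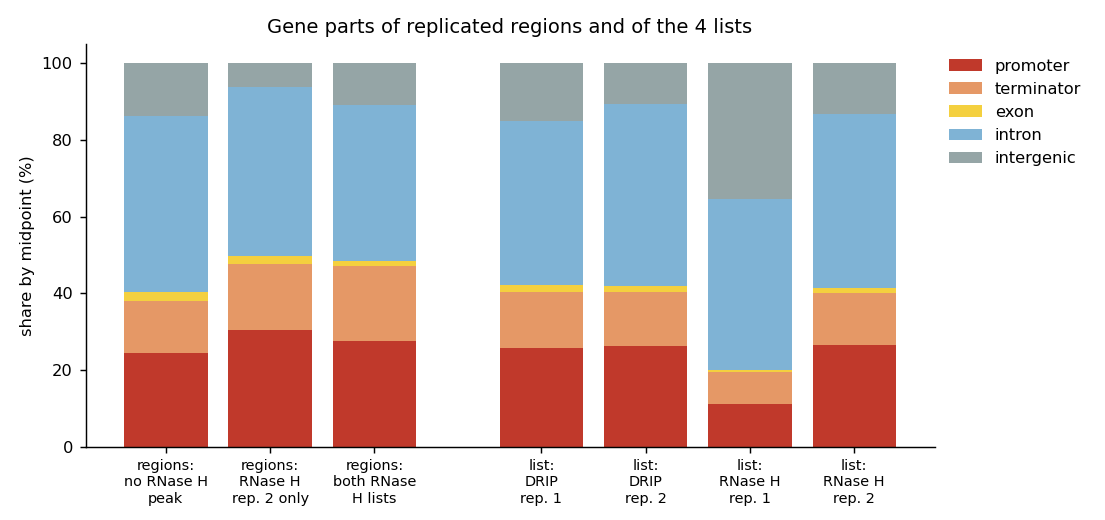
Share of midpoints in each gene part (%), stacked, for 3 classes of replicated region (left) and for all peaks of the 4 lists (right). Intergenic DNA holds 13.8% of regions without an RNase H peak and 6.47% of all regions with one, and 35.5% of the peaks of RNase H replicate 1 against 10.8% to 15.0% in the other lists.

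In whole lists the groups overlapped by promoter share and base composition but not by terminator or exon share. Terminators held 14.6% and 13.998% of DRIP peaks and 8.42% and 13.6% of RNase H peaks, and exons 1.70% and 1.67% against 0.556% and 1.36%, which was not tested. Promoters held 25.8% and 26.2% of DRIP peaks and 10.998% and 26.5% of RNase H peaks, so RNase H replicate 2 exceeded both DRIP lists while replicate 1 lay far below (p = 1 in the two-sided exact permutation test over the 4 libraries). With a 1 kb upstream window the groups did not overlap, with a mean difference of 3.404 points at the smallest p of the exact test, 0.333. The median GC content of 300 bp around the summits was 49.0% and 47.3% in DRIP and 47.7% and 48.3% in RNase H (p = 1, exact permutation test), against 40% in 28353 evenly spaced windows of the genome. In replicated regions it was 50% and 48.3% with an RNase H peak and 48.7% and 47.3% without, in the 2 DRIP lists. The mean difference was 1.17 points, and it turned to -0.39 when averaged over the width classes. GC skew, the excess of G over C, was read on the coding strand of genes in the same windows. It was above 0 in 59.7% of regions with an RNase H peak and in 62.3% of those without.

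A spatial difference lay at gene starts. In DRIP replicate 2 the share of 20163 protein-coding genes inside a peak rose from 10.2% at 10 kb before the start to 28.0% at the start and was highest, 28.8%, at 1250 bp after it. DRIP replicate 1 rose from 4.59% to its highest value, 12.9%, at the start itself. RNase H replicate 2 held 14.8% of gene starts and reached its highest value, 18.3%, only at 3000 bp after the start. RNase H replicate 1 stayed at or below 0.208% throughout, with 0.0794% at the start. In RNase H replicate 2 the share was 15.3% at 250 bp before the start and 14.3% at 500 bp after it, a shallow dip on a level well above the 7.39% at 10 kb before, and it was rising again, at 16.5%, where DRIP replicate 2 was highest.

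The overlap of the lists was also lowest close to the start. Among genes in a DRIP peak of replicate 2, the same base also lay in an RNase H peak of replicate 2 for 57.8% of 2050 genes at 10 kb before the start (95% Wilson interval 55.7 to 59.9%) and for 48.2% of 5651 genes at the start (46.9 to 49.5%). The share was lowest at 500 bp after the start, at 46.3% of 5686 genes (45.0 to 47.6%). It was back to 59.05% of 5548 genes at 3000 bp and was 56.8% of 3755 genes at 10 kb. Counting only bases in replicated regions, it fell from 68.6% at 10 kb before the start to 55.5% at 750 bp after it and was 67.5% at 10 kb after. At gene ends the share was 57.8% at 10 kb before the end, 59.8% at the end and 60.3% at 10 kb after. Neither peak width nor DRIP percentile was held fixed in these profiles, although the overlap rose with both. The genes counted also differ between positions, and the part of these differences was not tested.

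**Figure D4:**
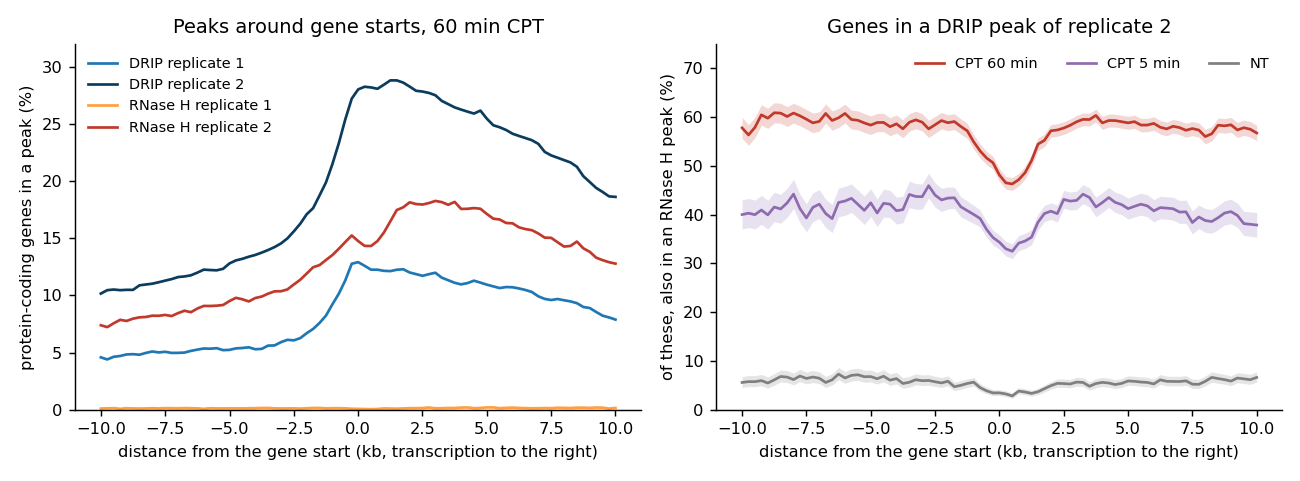
Left, share of protein-coding genes (%) whose base at each distance from the gene start (kb) lies in a peak of each of the 4 lists of 60 min CPT. Right, of the genes whose base lies in a DRIP peak of replicate 2, the share (%) in which it also lies in an RNase H peak of replicate 2, for 60 min CPT, 5 min CPT and NT, with 95% Wilson intervals shaded; each line is lowest at 500 bp after the start, at 46.3%, 32.5% and 2.85%.

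The same place was lowest in the other treatments of replicate 2. After 5 min of CPT the share was 40.02% at 10 kb before the start, 32.5% at 500 bp after it and 37.9% at 10 kb after. In NT cells it was 5.603%, 2.85% and 6.63% at those positions. In replicate 1, where RNase H lists were short, the values at 500 bp were 0.28% after 60 min, 1.33% after 5 min and 0% in NT. In NT the neighbouring values were 0.114% and 0% as well, so that pair rests on few genes. The value at 500 bp was also set against the mean of the values at 10 kb on both sides. The difference was -10.97, -6.45 and -3.27 points in replicate 2 (60 min, 5 min, NT). Since 500 bp was the lowest point of these profiles, the choice of position fixed their sign. In replicate 1 the difference was -0.53, -0.77 and -0.06 points in the same order. Few genes lie behind these, as the 60 min RNase H list of replicate 1 covered 0.0546% of all genes at 500 bp. In replicate 1 the lowest values lay elsewhere after 5 min, at 6750 bp before the start (0.844%), and in NT, at 9250 bp before it (0%). After 60 min the lowest, 0.202%, was at 750 bp after the start. The position of 500 bp was chosen from the replicate 2 profile after it had been seen, so no test is given.

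Base composition also differed at gene starts, and its part in the lower overlap was not tested. The median GC content around DRIP-covered bases was 64.0% at 500 bp after the start, 51.7% at 10 kb before it and 50.7% at 10 kb after. Within windows of 60% GC or more, 46.6% of 3568 bases at 500 bp lay in an RNase H peak (45.0 to 48.2%), against 63.6% of 450 at 10 kb before and 64.8% of 711 at 10 kb after. Within windows under 50% GC, the shares were 44.9% of 731 at 500 bp, 50.4% at 10 kb before and 49.1% at 10 kb after. At 500 bp that interval, 41.3 to 48.5%, overlapped those of both flanks, and at the start itself the share in this range was 52.3% of 260. From 50 to under 60% GC, the share was 46.4% of 1387 at 500 bp (43.7 to 48.99%), 62.5% at 10 kb before and 62.6% at 10 kb after. GC-rich DRIP bases away from gene starts lay in RNase H peaks more often than GC-poor ones.

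Named genes show such starts. DHX9 encodes a helicase that unwinds R loops. Its start on chromosome 1 lay in DRIP peaks of 1429 bp (12 summit fragments) and 3144 bp (29 fragments) in replicates 1 and 2, and the nearest RNase H peak of replicate 2, with 11 fragments, lay 340 bp from the base 500 bp into the gene. At EEF2, the elongation factor that moves the ribosome along mRNA, DRIP peaks of 7375 and 10648 bp with 64 and 95 fragments covered that base, and an RNase H peak of replicate 2 with 55 fragments lay 227 bp away. HSPA5, the chaperone of the endoplasmic reticulum, had DRIP peaks of 1096 and 4052 bp with 10 and 32 fragments, and its nearest RNase H peak lay 593 bp away with 9 fragments. At TDP2, which repairs trapped topoisomerase II, the nearest RNase H peak of replicate 2 was 4607 bp away. At DHX9 and EEF2 the RNase H peak thus began or ended inside the DRIP peak of replicate 2 that covered the gene start.

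Over all genes, the base 500 bp after the start lay in peaks of both DRIP replicates for 2220 of 20163 genes, and of these 1555, or 70.0% (68.1 to 71.9%), were in an RNase H peak of at least 1 list. Translation factor genes had 9 of 17 in an RNase H peak, 52.9% (31.0 to 73.8%), and heat shock and chaperone genes 4 of 11, 36.4% (15.2 to 64.6%). Cytosolic ribosomal protein genes had 33 of 44, 75.0%, and SR and hnRNP genes, which process mRNA, 16 of 21, 76.2%. Immediate early genes, which respond within minutes to growth signals and stress, had 13 of 15, with IER2 and MCL1 as those without one. Of 13 p53 target genes 12 had one, DRAM1 being the exception. The interval of the chaperone list was the only one of these, or of the further lists read here, to lie below 70.0% throughout. The intervals are not adjusted for the number of lists, and the position was chosen after the profile had been seen. The lists were not tested against each other.

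Counted over whole gene bodies, nearly every gene with a DRIP region also had an RNase H peak. Replicated regions overlapped 9503 of 20163 protein-coding genes, or 47.1%, and in 8717 of these, 91.7%, at least 1 region met an RNase H peak. The 786 genes without one had a mean of 1.15 regions each, against 2.21 for the others, and a longer median length of 50311 bp against 30177 bp. Regions were found in 79 of 89 cytosolic ribosomal protein genes, all 79 with an RNase H peak, and in 36 of 39 SR and hnRNP genes, all 36 with one. The same held for 29 of 30 immediate early genes, 18 of 51 replication-dependent histone genes and 14 of 39 HOX genes, each of which had an RNase H peak. Of 35 translation factor genes, all had a region and 33 an RNase H peak; EIF1AX and EIF2S1 had none. Counts were 42 of 43 for DNA damage response genes, with RAD50 the exception, 31 of 32 for chaperone genes, with HSPE1, 25 of 26 for p53 target genes, with DRAM1, and 22 of 23 for R-loop resolution factors, with TDP2. Each of these stood at or above the 91.7% of all genes with a region.

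Zinc finger genes of chromosome 19 had the lowest share. Regions overlapped 97 of the 246, and 83 of those, 85.6% (77.2 to 91.2%), had an RNase H peak. The 14 without one included ZNF554, with a 1538 bp promoter region of 9 and 25 summit fragments, and ZNF417, with a 3669 bp region of 9 and 15. The interval includes the 91.7% of all genes. Their regions were weaker than those of most lists: the median of the best lower percentile per gene was 70.8, against 97.9 in ribosomal protein genes and 95.5 in immediate early genes. Lower medians still went with higher shares in histone genes (58.0, 18 of 18 with a peak) and DNA damage response genes (68.8, 42 of 43).

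Of 20 genes often used to assay R loops, a list that includes loci the study itself assayed, 19 had a replicated region. All 19 had an RNase H peak, close to the 91.7% of all genes with a region, and 3 of them had one of RNase H replicate 1. EGR1, an immediate early transcription factor, lay in a region at chr5:137798557-137806737 with 70 and 131 summit fragments in DRIP and 5 and 165 in RNase H. At FOS, another immediate early gene, chr14:75744266-75749800 held 42 and 103 fragments in DRIP, 46 in RNase H replicate 2, and no peak in replicate 1. ACTB, which encodes β-actin, had 38 and 87 fragments in DRIP and 37 in RNase H replicate 2 at chr7:5562255-5574509. RPL13A, a ribosomal protein gene and a common positive control, had 60 and 126 in DRIP and 4 and 63 in RNase H at chr19:49989437-50000335. CALM3, a calmodulin gene, was higher in RNase H replicate 2, with 57 fragments against 29 and 42 in DRIP, at chr19:47108646-47118547. By summit fragments in each locus's strongest region, RNase H replicate 2 exceeded DRIP replicate 2 only at EGR1, CALM3 and TFPT (69 against 56). At the rest of the 19 it held fewer.

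Where both libraries had a peak, heights in the same region were close in replicate 2. In 16276 regions with a peak in both libraries, the DRIP summit had a median of 23 fragments, 11.6 times the background, and the RNase H summit 19 fragments, 10.9 times the background. On the log2 scale RNase H over DRIP had a median of -0.15 (quartiles -0.50 and 0.23), and the RNase H summit was higher in 39.3% of regions (38.6 to 40.1%). It was higher in 36.1% at promoters, 39.7% in introns and 56.9% between genes. Only regions with a called RNase H peak enter these heights. An RNase H peak met 84.7% of promoter regions and 67.6% of intergenic ones, so the parts were filtered unequally. Their order therefore cannot be read as a difference in digestion. Summits lay a median of 171 bp apart. Heights were scaled by each library's background alone, without the yeast spike-in, so a uniform loss of DNA in the digested sample cannot be seen in them. In replicate 1 the RNase H summit was higher over background in 86.8% of 634 regions, where its median was 4 fragments on a background of 0.110. The smallest peak of that list held 3 fragments, so any peak called on so low a background stood high over it. This share therefore says nothing about the effect of digestion on height.

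**Figure D5:**
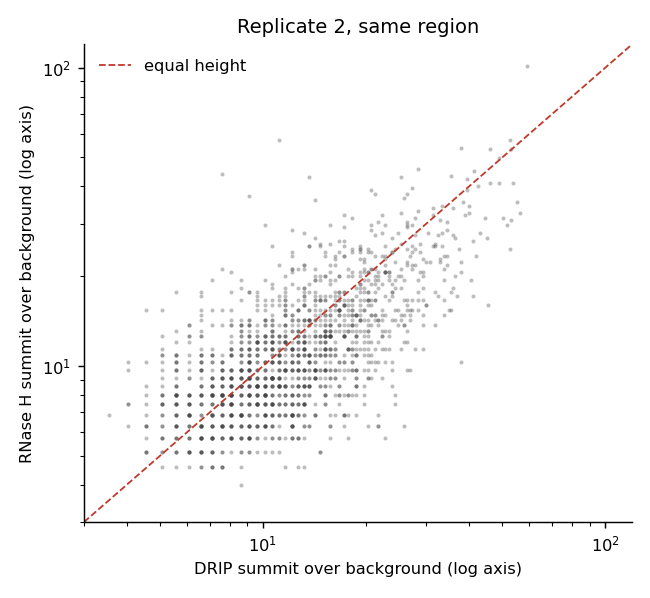
Summit height over library background in DRIP (x axis) and RNase H (y axis) of replicate 2, both on log axes, for 1628 of the 16276 regions with a peak in both (every 10th region); the dashed line marks equal height. Points lie on both sides of the line, with 39.3% of all regions above it.

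The strongest regions of each class were named by the lower of their 2 DRIP percentiles. Among regions met by both RNase H lists, the top 3 lay at chromosome ends. These were chr19:59116774-59118986 (206 and 198 summit fragments in DRIP, 15 and 141 in RNase H), chr21:48117269-48119896 (173 and 128, then 15 and 102) and chr9:10001-16125 over WASHC1 (186 and 136, then 18 and 62). They held 23, 19 and 41 copies of the telomeric hexamer TTAGGG on either strand, and each reached the end of the sequenced bases of hg19. Among regions met by replicate 2 only, chr2:10069-12322 lay 68 bp from the sequenced end with 28 hexamers, and chr11:134944501-134946516 reached the end with 10. Another region of that class, at chr17:7210493-7218346, lay over EIF5A, a translation factor, with 92 and 112 summit fragments in DRIP and 113 in RNase H replicate 2. In all, 8 replicated regions lay within 10 kb of a sequenced end, and 7 had an RNase H peak (87.5%, against 81.6% of all regions). Telomeric repeats are transcribed into the hybrid-forming RNA TERRA, and they are also present in many near-identical copies, so reads there cannot be assigned to 1 chromosome end with certainty.

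Among regions without an RNase H peak, an intron of LILRB4 at chr19:55169972-55170991 was strongest, with 31 and 57 summit fragments in DRIP. It was met by the RNase H lists of replicate 2 in NT cells and after 5 min, but not after 60 min. SMG5, a factor of nonsense-mediated mRNA decay, had 26 and 32 fragments at chr1:156251142-156252918. The other regions of this class named by the rule form a pair on chromosome 4, 2074 bp apart and 1554056 bp or more from IGFBP7, the nearest protein-coding gene. The pair held 20 and 30 fragments at chr4:59530608-59531067 and 23 and 29 at chr4:59533142-59533732. Their summits lay in inverted copies of the same sequence: over 106 aligned bases the window of one matched the reverse complement of the other at 104. Reads from such copies can be hard to place. The windows of 120 bases are shown because the pair is the strongest intergenic case without an RNase H peak; capitals mark the longest run of 66 bases that is identical once one is reverse complemented.
Chromosome 4 region 1, chr4:59530595-59530714: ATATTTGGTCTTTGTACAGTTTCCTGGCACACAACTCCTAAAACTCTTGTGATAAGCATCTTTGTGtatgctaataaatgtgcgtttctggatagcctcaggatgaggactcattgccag
Chromosome 4 region 2, chr4:59533640-59533759: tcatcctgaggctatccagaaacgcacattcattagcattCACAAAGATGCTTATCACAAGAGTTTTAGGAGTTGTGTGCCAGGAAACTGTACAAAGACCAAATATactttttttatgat

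Regions with an RNase H peak were more often present before and early in treatment. A peak of both NT DRIP lists met 37.1% of regions with an RNase H peak (36.3 to 37.8%) and 17.9% of those without (16.7 to 19.2%), and 61.9% of those met by both RNase H lists. The difference of 19.2 points was 4.14 points when averaged over the width classes. Both DRIP lists of 5 min met 40.2% with and 12.4% without. Regions with no DRIP peak in any NT or 5 min list made up 16.7% of regions with an RNase H peak and 39.0% of those without. RNase H replicate 2 of 5 min CPT met 57.4% of the former and 15.3% of the latter, and RNase H replicate 2 of NT cells 13.9% and 3.30%. Of these contrasts only that of the NT DRIP lists was averaged over the width classes, so the others are not separated from width.

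The same overlap measured within the other treatments was lower. Replicated DRIP regions numbered 12865 in NT cells and 12637 after 5 min, and 22.9% and 61.5% of them were met by an RNase H peak of their own treatment, against 81.6% after 60 min. The RNase H lists of replicate 2 grew along the same series, from 15790 to 50353 and 67188 peaks, with background levels of 0.929, 1.17 and 1.75 fragments. Depth and treatment cannot be told apart in this order. The share of DRIP peaks met in the same replicate was 10.8%, 33.0% and 49.0% in replicate 2 and 0.445%, 2.79% and 1.70% in replicate 1, so the order held in replicate 2 and not in replicate 1. The width ratio of regions with over without an RNase H peak was 1.90, 2.17 and 2.75.

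RNase H peaks outside DRIP peaks were numerous. In RNase H replicate 2, 21301 of 67188 peaks (31.7%) met no DRIP peak of either replicate, and in replicate 1, 4255 of 5392 (78.9%). Those of replicate 2 were narrower (350 against 604 bp) and more often intergenic (25.8% against 7.46%) than peaks that met DRIP. In replicate 1, 40.7% of peaks without DRIP were intergenic, and 34.4% held a run of at least 10 A or T in the 300 bp around the summit. Such a run was found in 17.5% of the corresponding peaks of replicate 2, in 15.6% and 15.96% of DRIP peaks and in 9.745% of evenly spaced genome windows.

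One gene stood apart in the replicate 1 libraries. DICER1, the nuclease that processes microRNA precursors, held the peak with the most summit fragments in both 60 min libraries of replicate 1, with 335 summit fragments in DRIP and 219 in RNase H. In replicate 2 its highest peaks had 19 and 25 fragments. Of its peaks, 11 of 13 in DRIP replicate 1 and 11 of 11 in RNase H replicate 1 had their summit in an exon, although exons make up 17.4% of the gene (chr14:95552565-95624347). In NT cells the highest DICER1 peak of replicate 1 reached 1039 fragments in DRIP and 1309 in RNase H, against 23 and 72 in replicate 2. Exon summits were also seen in RNase H replicate 2, in 10 of 10 peaks of NT cells, 9 of 9 after 5 min and 7 of 11 after 60 min. In DRIP replicate 2 they made up 3 of 5, 8 of 12 and 4 of 10 in the same order. The gene contributed 6 replicated regions, 5 of them met by RNase H replicate 1, including a 1031 bp region with 243 and 12 fragments in DRIP and 150 in RNase H replicate 1 alone. What gave exon-shaped peaks there was not tested, and the gene accounts for 5 of the 634 regions met by RNase H replicate 1.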

How the data were processed

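DRIP-seq peak lists of 12 human libraries were analysed, 4 of them from 60 min of CPT. Per the study's methods, BWA alignment (hg19, with yeast as spike-in) followed Cutadapt trimming, blacklisted and duplicate reads were dropped, and the authors called peaks with MACS2 for each library against its own input; the 6 input libraries have no list of their own. The deposited columns are fold enrichment over input (a ratio), −log10 p and −log10 q, a display score, and the border and summit positions. After peak calling, the study normalized read counts by library size and spike-in and compared DRIP with RNase H-treated libraries in limma. It kept only regions that this comparison selected as true R loops. The lists used here are the calls for each library, so the overlaps above do not measure the specificity of the study's selected regions. The lists hold no spike-in scaling, so folds were compared only as ranks within a list. Every deposited −log10 q was at least 1.30.

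Gene parts came from GENCODE release 44 mapped to GRCh37 (20163 protein-coding genes). Summit fragments were solved from the deposited fold and −log10 p. Overlap, regions, percentiles and profiles were computed in Python 3.11.15 (NumPy 2.4.6, pandas 2.3.3, SciPy 1.17.1) with code tested on simulated peak lists. Comparisons over 4 libraries used two-sided exact permutation tests; all others are descriptions with 95% Wilson intervals. Named regions were the 4 per class, and genes the 2 with and 2 without an RNase H peak per list, of highest lower DRIP percentile, and all R-loop test loci; genes named for gene starts, DICER1, and the chromosome ends were chosen after their values were seen. Members and gene lists were chosen with earlier results of these data known. Alternatives were a stricter q, RNase H lists of equal length, other overlap rules, other promoter windows, the replicate block and leaving out each library. A further alternative averaged over width classes, weighted by the widths of regions without an RNase H peak. The widest of the 5 classes was left out there, since it held fewer than 20 such regions. Some items named by these rules are not reported here.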

Additional observations from a re-analysis of the deposited data

How the results depend on the processing

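RNase H replicate 1 has the lowest background of the 4 libraries, and lists without spike-in scaling cannot show a uniform loss. Differences below are regions with minus without an RNase H peak, in percentage points, and the cause of each change was not tested. With the replicate block, in which same-numbered libraries are paired, exact p was 0.5 for peak number (20983.5) and width (111.5 bp) and 1 for promoter share (7.25) and GC content (0.17). With 2 pairs that test cannot go below 0.5, so it bears on no call. The width ratio was 3.18 with RNase H lists of equal length, 1.75 with 50% of the region covered, 2.38 with a peak over a summit, 5.58 for both lists against neither and 1.72 for segments shared by both DRIP replicates. Under those settings in order, the terminator difference was 5.89, 2.30, 3.21, 6.13 and 2.17 and the GC difference 2.00, 0.83, 0.83, 2.00 and 0.83. With equal lengths, both against neither and shared segments, the gene body difference was -8.48, -6.49 and -4.09. The untreated presence difference was 31.2 with equal lengths and 43.99 for both against neither. The percentile difference was 20.1 with 50% covered, 45.6 for both against neither, 22.995 for shared segments and 20.5 with a −log10 q of at least 3, which gave a terminator difference of 4.15. The share of regions with an RNase H peak was 23.02% with equal lengths and 3.05% with both lists required, which left 10.02% of listed genes. The promoter difference turned to -1.04 with the 1 kb window. With any overlap in place of midpoints it was 15.8, the terminator difference 11.4 and the gene body difference turned to 8.82. Averaged over width classes, the terminator difference was 0.68, the gene body difference turned to 0.24, the GC difference to -0.39, and the percentile and untreated differences were 12.6 and 4.14.

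Leaving out each library in turn gave DRIP minus RNase H differences of -9914.5 to 51881.5 peaks, 43 to 180 bp in width, -0.50 to 15.01 in promoter share and -0.67 to 1.00 in GC content; the negative ends came without RNase H replicate 1, and for GC without DRIP replicate 1 (-0.17 without RNase H replicate 1). For regions, the ranges were 1.64 to 2.75 for the width ratio, -2.88 to 15.7 for promoters, 2.61 to 6.33 for terminators, -4.64 to -2.32 for gene bodies, -19.2 to 4.32 for intergenic DNA, 21.3 to 36.2 for the percentile, 0.83 to 4.33 for GC, 15.8 to 27.6 for untreated presence, 3.17% to 81.5% for the share and 10.3% to 95.4% for listed genes. The promoter and intergenic signs turned without RNase H replicate 2. Without DRIP replicate 2 the promoter difference was 15.7 and the intergenic one -19.2.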
